A study of Homo sapiens with 4 samples.

Results

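MTF-1 sites in gene deserts were the 2032 sites, of 77054 on chromosomes 1 to 22 and X (2.64%), whose centre lay over 100 kb from every transcript start of GENCODE 44 on hg38. A site was a stretch covered by overlapping peaks of either deposited list. It was called control only, and so lost in cadmium, when only the control list covered it. It was called cadmium only, or gained, when only the cadmium list did, and shared when both lists had at least 1 common base there. MTF-1 had been profiled by CUT&RUN in MDA-MB-231 cells, an established human breast cancer line, in 2 libraries from control cells and 2 libraries from cells that had grown in cadmium sulfate, at a final 10 µM, through at least 10 passages. The cadmium cells were an adapted population of a single line. The replicates of each condition had been merged before peaks were called, and the lists give positions with no height, count or score. The spread between replicates and the depth could not be measured from these lists, so every interval given covers counting error alone.

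MTF-1 is a zinc finger protein that takes up zinc and then binds metal response elements, and it is best known for switching on the metallothionein genes when cells meet zinc or cadmium. Gene deserts are long stretches of chromosome without transcript starts. Some hold enhancers that act on a distant gene, and the longest ones are the centromeres and their flanks, which consist of tandem repeats such as the alpha satellite, in which a short unit follows itself many times. In CUT&RUN, an antibody tethers a nuclease to the protein of interest and the DNA released around it is sequenced. A read from repeated DNA matches many places of the genome.

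The sequences below show both kinds of DNA that the desert sites held. All are from hg38 on the plus strand. The first pair are neighbouring units of an alpha satellite array under a shared site on chromosome 20, chosen for the highest identity at a shift of 171 bases. Capitals mark the 144 of 171 bases that the units have in common (84.2%).
alpha satellite unit, chr20:28840800-28840970: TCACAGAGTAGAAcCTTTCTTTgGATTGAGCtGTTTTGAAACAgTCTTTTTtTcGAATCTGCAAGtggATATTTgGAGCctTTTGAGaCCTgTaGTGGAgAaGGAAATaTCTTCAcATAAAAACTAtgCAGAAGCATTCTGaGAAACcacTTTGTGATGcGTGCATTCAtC
next unit, chr20:28840971-28841141: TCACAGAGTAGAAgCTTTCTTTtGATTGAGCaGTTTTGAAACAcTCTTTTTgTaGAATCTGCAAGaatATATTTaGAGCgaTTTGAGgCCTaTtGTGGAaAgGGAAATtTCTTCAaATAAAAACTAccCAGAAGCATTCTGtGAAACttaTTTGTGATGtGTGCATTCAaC

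The next sequence is the centre of the desert site farthest from any transcript start, a shared site in the chromosome 1 centromere. Capitals mark exact copies of ATTCC, the unit of the other large satellite family (GGAAT on the opposite strand), which made up 20 of the 100 bases.
GGAAT repeat, chr1:125179950-125180049: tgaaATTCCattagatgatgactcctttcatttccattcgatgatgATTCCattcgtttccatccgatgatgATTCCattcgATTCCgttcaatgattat

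In desert sites outside the satellites, the string most enriched over all desert DNA, of 10 searched, was TGACTCA. It reads as TGAGTCA on the opposite strand. It is the binding sequence of AP-1, the dimers of Fos and Jun proteins. These 4 sequences are, for the control-only and the shared class, the pair of single-copy sites farthest from any start that held it within 100 bp of the centre. Capitals mark the string.
control only, chr4:160129599-160129705, intergenic: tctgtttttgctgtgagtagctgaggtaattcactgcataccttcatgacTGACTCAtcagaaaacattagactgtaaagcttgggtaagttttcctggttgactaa
control only, chr5:101278434-101278540, intergenic: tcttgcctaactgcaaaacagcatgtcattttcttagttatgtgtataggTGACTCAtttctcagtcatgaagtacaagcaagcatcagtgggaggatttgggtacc
shared, chr18:40868253-40868359, intergenic: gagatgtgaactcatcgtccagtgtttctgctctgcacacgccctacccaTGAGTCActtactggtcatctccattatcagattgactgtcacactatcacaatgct
shared, chr5:84696833-84696939, intergenic: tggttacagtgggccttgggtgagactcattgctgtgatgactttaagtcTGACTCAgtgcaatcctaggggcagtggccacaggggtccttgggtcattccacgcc

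The last single-copy set holds the forkhead string GTAAACA, which reads as TGTTTAC on the opposite strand, in capitals, at the farthest such site of each class. All of these lay inside genes, one in ROBO2, an axon guidance receptor, and the others in GALNTL6, a gene of the family that attaches N-acetylgalactosamine to proteins.
control only, chr4:172726107-172726213, inside GALNTL6: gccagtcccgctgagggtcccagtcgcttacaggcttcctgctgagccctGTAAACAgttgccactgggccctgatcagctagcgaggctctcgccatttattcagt
cadmium only, chr3:76134109-76134215, inside ROBO2: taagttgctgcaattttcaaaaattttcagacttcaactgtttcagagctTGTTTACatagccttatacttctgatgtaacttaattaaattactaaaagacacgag
shared, chr4:172850766-172850872, inside GALNTL6: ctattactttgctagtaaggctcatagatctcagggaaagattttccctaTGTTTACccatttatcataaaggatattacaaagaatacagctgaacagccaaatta

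Deserts made up 272 Mb of known sequence, 9.35% of the genome, in 1824 intervals with a median length of 75.5 kb. Of these intervals, 648 held a site (35.5%) and 295 of them held a single one. Sites were sparse: deserts held 7.46 sites per Mb and the rest of the genome 28.4, a ratio of 0.262. The ratio was 0.440 for control-only sites, 0.253 for cadmium-only sites and 0.195 for shared sites.

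Control-only sites took a larger share of the deserts than of the genome. There were 841 of them among the 2032 desert sites (41.4%, 95% Wilson interval 39.3 to 43.5%), where 25.1% of all sites were control only. The 231 cadmium-only sites were 11.4% (10.1 to 12.8%), against 11.8% of all sites, a share that the interval includes. The remaining 960 desert sites were shared (47.2%, 45.1 to 49.4%), against 63.1% of all sites. These shares compare peak lists, 1 per condition, and carry no replicate check.

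The desert limit did not mark a step. Sites 90 to 100 kb from a start were control only in 36.3% of 380 cases and cadmium only in 14.2%. Sites 100 to 110 kb away were control only in 36.4% of 308 cases and cadmium only in 14.9%. The control-only share was larger in each band farther from a start. It was 11.2% up to 1 kb from a start, 26.5% from 1 to 10 kb, 31.5% from 10 to 50 kb and 36.1% from 50 to 100 kb. Within deserts it was 37.6% from 100 to 200 kb, 47.7% from 200 to 500 kb and 47.9% beyond 500 kb. The cadmium-only share went the other way past 200 kb. It was 15.2% from 100 to 200 kb, 9.72% (6.45 to 14.4%) from 200 to 500 kb and 2.83% (1.72 to 4.62%) beyond 500 kb.

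**Figure D1:**
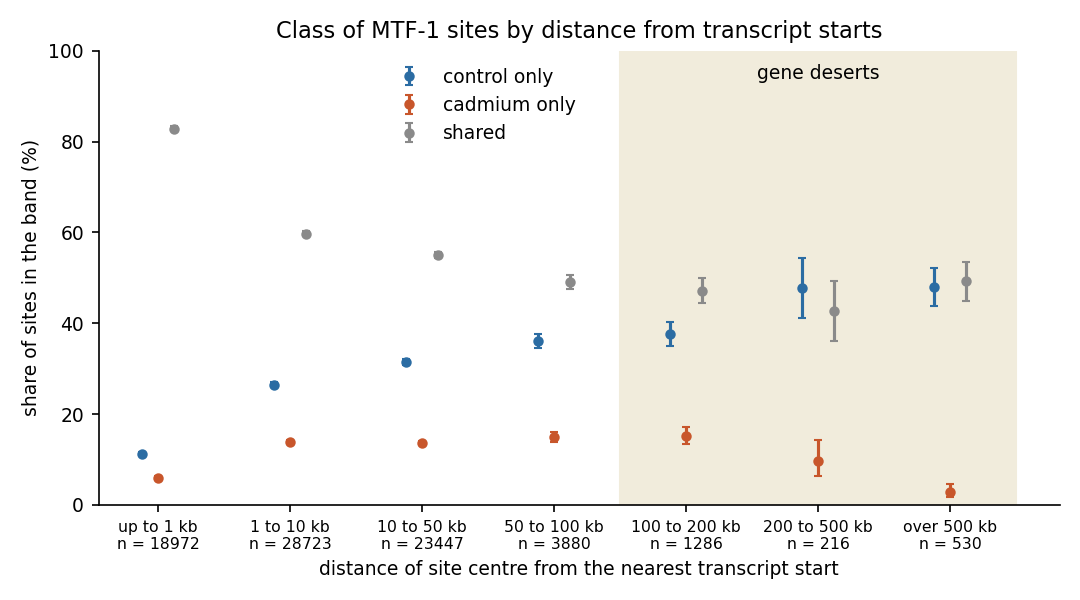
Share of MTF-1 sites (%) that were control only, cadmium only or shared, by distance from the nearest transcript start, with 95% Wilson intervals. Control-only sites are 11.2% up to 1 kb and 47.9% beyond 500 kb, where cadmium-only sites are 2.83%.

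The sites beyond 500 kb were a different kind of DNA. Each site was grouped by its sequence, a division made after its position had been seen. A site was alpha-satellite-like if the 2 kb around its centre matched itself at a shift of 169 to 172 bases in at least 40% of positions. It was a GGAAT repeat if that string covered at least 15%, other repeated if fewer than 50% of the 31-base words of its central 500 bp occurred once in the genome or if it matched itself at another shift, and single-copy otherwise. By this division 593 desert sites were alpha-satellite-like (29.2%), 32 were GGAAT repeats, 38 were other repeated and 1369 were single-copy (67.4%). Of the 530 sites beyond 500 kb, 518 were alpha-satellite-like and none was single-copy. From 100 to 200 kb, 1212 of 1286 sites were single-copy.

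The alpha-satellite-like group was checked against the box of the centromere protein CENP-B, which had not defined it. The box was found in 476 of the 593 sites (80.3%) and in 0 of the 1369 single-copy desert sites, which allows a share of up to 0.219%. The median of the group had no 31-base word that occurred once in the genome, and its words had a median of 1560.5 copies. Among the shifts that defined the group, 466 of the 593 sites matched themselves best at 171 bases and 114 at 169 bases. The chromosome 1 sites of the latter kind, 95 in number, had a median identity of 74.9% at 340 bases, the length of a pair of units.

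Cadmium-only sites were rare in the desert satellites. Of the 593 alpha-satellite-like sites, 297 were control only (50.1%, 46.1 to 54.1%), 278 were shared and only 18 were cadmium only (3.04%, 1.93 to 4.75%). The control list covered 658 kb in these sites and the cadmium list 231 kb. The control list was also the larger elsewhere. In single-copy desert sites the lists covered 1335 and 727 kb, and the whole lists covered 130 and 90.9 Mb. Of the 32 GGAAT repeats in deserts, 27 were shared (84.4%, 68.2 to 93.1%), 4 control only and 1 cadmium only. Sites that met the same rules nearer to genes differed. Of 53 that met the alpha-satellite-like rule within 100 kb of a start, 19 were cadmium only (35.8%, 24.3 to 49.3%) and 10 control only. Their DNA differed too. Median GC content was 57.4% in the 23 at 1 to 10 kb, 55.3% in the 16 at 10 to 50 kb and 38.7% in the 12 at 50 to 100 kb, with 1, 4.5 and 4 copies. In deserts it was 39.2%, with 1560.5 copies. The CENP-B box was not searched nearer to genes, so those sites cannot be taken as alpha satellite. Of 56 GGAAT repeats within 100 kb of a start, 25 were control only and 0 cadmium only. The single-copy desert sites were control only in 527 of 1369 cases (38.5%, 36.0 to 41.1%), cadmium only in 206 (15.05%, 13.3 to 17.0%) and shared in 636. Over all single-copy sites of the genome these shares were 24.9%, 11.7% and 63.4%. Single-copy sites nearer to genes were control only in 31.4% of cases from 10 to 50 kb and in 35.6% from 50 to 100 kb. Those in deserts were control only in 37.9% of cases from 100 to 200 kb and in 43.3% (35.8 to 51.1%) from 200 to 500 kb.

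**Figure D2:**
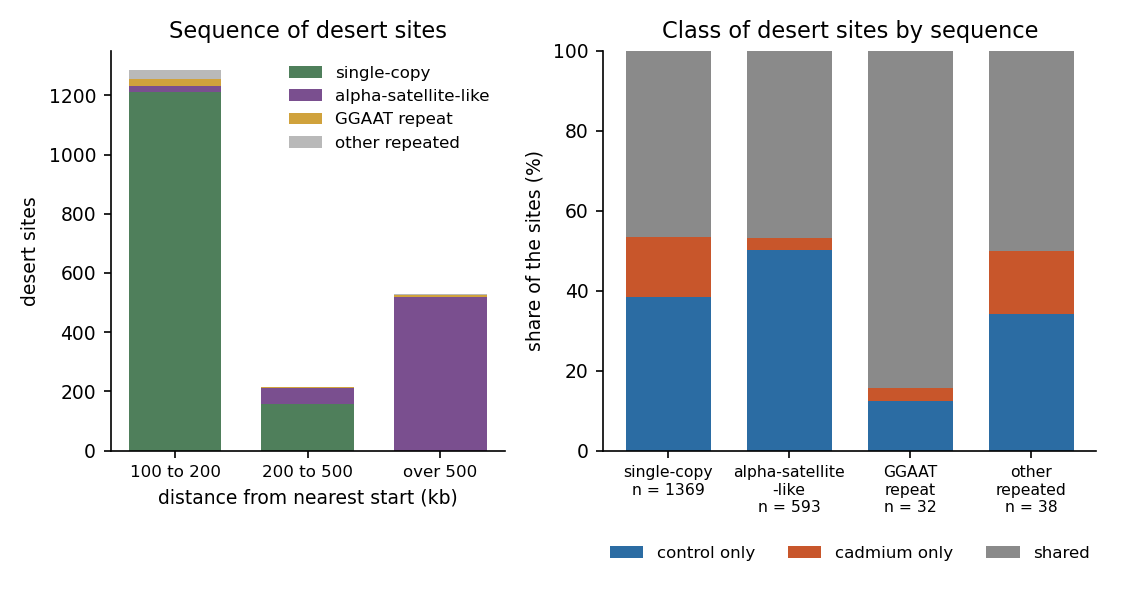
Left, number of desert sites in each sequence group by distance from the nearest transcript start; right, share of control-only, cadmium-only and shared sites (%) in each group. The 518 alpha-satellite-like sites fill the band beyond 500 kb, and 3.04% of alpha-satellite-like desert sites are cadmium only against 15.05% of single-copy desert sites.

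Satellite sites of 1 list shared most of their sequence with the satellite DNA of the other list. Of the 297 control-only alpha-satellite-like sites, 226 (76.1%) had at least 50% of their 31-base words somewhere in the alpha-satellite-like DNA that the cadmium list covered, and the median site had 74.0%. For the 18 cadmium-only sites the median was 87.5% of words found under the control list. The pair of sequences below shows this: they lie 1.34 Mb apart in the chromosome 1 centromere, one under a control-only and one under a shared site, and 105 of their 107 bases are the same. Both hold the forkhead string, in capitals. Words of this group had a median of 1560.5 copies in the genome, and satellite DNA outside both lists was not compared. The shared words are therefore not particular to sites of the lists. How reads with several possible places were assigned is not given in the sources used here, and its part in the classes of these sites was not tested.
control only, chr1:123438572-123438678, alpha satellite: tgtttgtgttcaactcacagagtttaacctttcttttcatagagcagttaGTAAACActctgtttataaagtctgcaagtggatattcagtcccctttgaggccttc
shared, chr1:124782228-124782334, alpha satellite: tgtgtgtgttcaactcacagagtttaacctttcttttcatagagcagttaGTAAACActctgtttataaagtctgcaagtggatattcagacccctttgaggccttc

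A single interval held 375 desert sites (18.5%). This was the chromosome 1 centromere with its flanks, chr1:121680525-143243179, between LINC01691 and ENSG00000276118, also the longest desert at 21.6 Mb, of which 3502358 bp are known sequence. It held 176 control-only, 8 cadmium-only and 191 shared sites, 361 of them alpha-satellite-like and 12 GGAAT repeats. Without it the control-only share of desert sites was 40.1% and the cadmium-only share 13.5%.

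The other deserts richest in sites were also centromeric. The start of chromosome 13 up to ENSG00000279924 (chr13:1-18078464) held 61 sites, 40 control only, 3 cadmium only and 18 shared. The interval chr7:57936252-62175677 held 35 sites, 11 control only, 2 cadmium only and 22 shared. The interval chr10:38883005-42049548 held 31, of which 11, 3 and 17 were in these classes. The interval chr17:22804416-26881693 stood out among them with 21 of 25 sites shared and 4 control only. All 11 alpha-satellite-like desert sites of chromosome 19 were control only, and their words had a median of 1 copy in the genome. The start of chromosome 15 (chr15:1-19778554), the interval next in length to that of chromosome 1, held 4 sites, 2 control only and 2 shared.

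Away from the centromeres, the intervals that held most single-copy sites were examined. The richest was chr2:71710780-71884433, between DYSF, which encodes the membrane repair protein dysferlin, and the pseudogene RPS20P10, with CYP26B1, the retinoic acid hydroxylase, as the next coding gene. It held 18 sites in 174 kb, 5 control only, 5 cadmium only and 8 shared. At all 8 shared sites the cadmium peak was the longer one. At chr2:71715601-71717599, for instance, the cadmium list covered 1999 bp and the control list 599 bp.

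The next in number had the opposite pattern. The interval chr14:54091996-54296848 lies between the pseudogene ATP5F1CP1 and CDKN3, which encodes a phosphatase of cyclin-dependent kinases, with BMP4, which encodes a bone morphogenetic protein, as the next coding gene on the other side. It held 17 sites, 10 control only, 7 shared and 0 cadmium only. The control peak was the longer one at 6 of the 7 shared sites. At chr14:54205601-54213799 the control list covered 8199 bp and the cadmium list 1998 bp, and at chr14:54104001-54111799 it covered 7799 bp against 2998 bp.

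Control-only sites also outnumbered cadmium-only ones at the other intervals of this set. The interval between ADAMTS9, which encodes a secreted metalloprotease, and LINC02040 (chr3:64788001-65074915) held 5 control-only and 6 shared sites, all inside the antisense transcript ADAMTS9-AS2. The interval between ATRNL1 and GFRA1, the receptor for glial cell line-derived neurotrophic factor (chr10:116009352-116155794), held 6 control-only and 3 shared sites. That beside INHBA, which encodes the beta A subunit of activins (chr7:41201605-41592563), held 6 control-only, 1 cadmium-only and 3 shared sites. The interval next to LINC01776 (chr1:98310748-98561058) held 6, 1 and 4. The interval whose nearest coding gene is IRS1, an adaptor of insulin signalling (chr2:226285372-226558792), held 4 control-only and 6 shared sites.

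Some deserts held sites of 1 class. In COL25A1, which encodes a membrane collagen, all 6 sites of the interval chr4:108932693-109202366 were control only, with widths from 399 to 2399 bp. All 6 sites of chr4:18589509-18998198 were control only as well. In KCNQ5, a potassium channel gene, all 5 sites of chr6:72722191-72867752 were shared, and at each the control peak was the longer. In RUNX1, a transcription factor of blood cells, all 4 sites of chr21:35236639-35365328 were shared. In the interval beside TCERG1L (chr10:131411722-131676385) all 5 sites were cadmium only, and one of them, chr10:131653801-131656799, was at 2999 bp the widest cadmium-only site of any desert. All 4 sites of chr20:24779548-24831839 were also cadmium only. These intervals were chosen because they held at least 4 single-copy sites, all of 1 class. There were 16 such intervals, of which 9 were all shared, 5 all control only and 2 all cadmium only in their single-copy sites. The control-only interval chrX:82661202-82775648 also held 1 shared site of repeated sequence. Of 748 pairs of adjacent single-copy sites in the same desert, 379 were of the same class (50.7%), where the class shares alone give 38.7%.

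**Figure D3:**
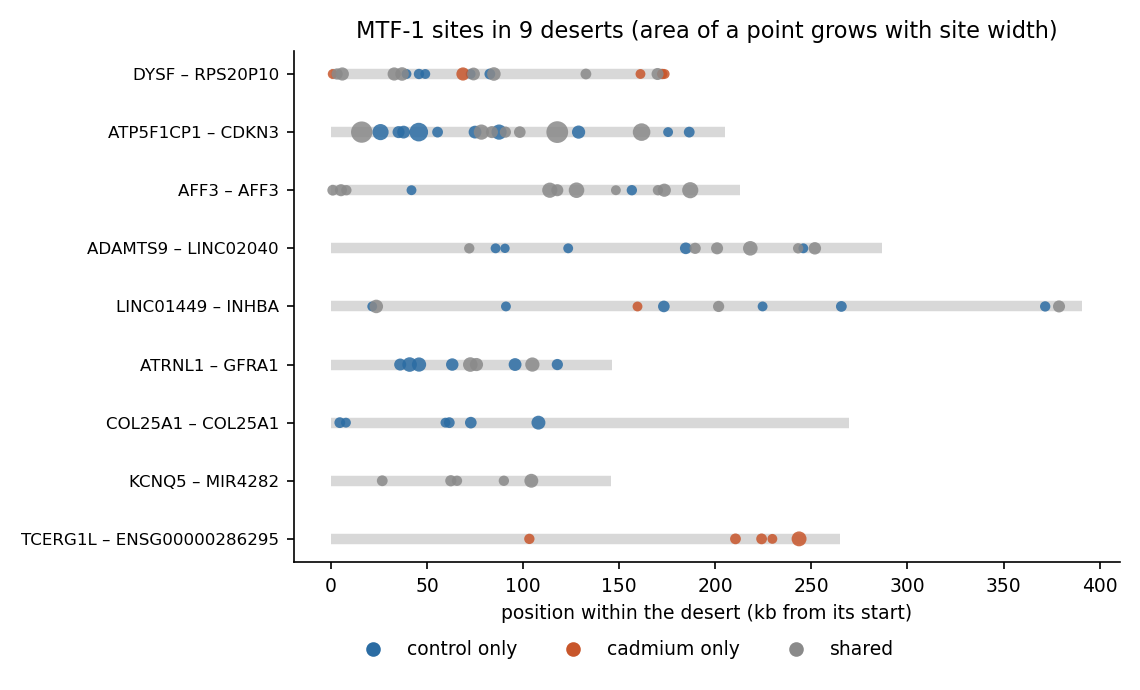
Position of MTF-1 sites in 9 deserts, named by the genes whose starts flank them, in kb from the start of the desert (grey bar); colours give the class, and the area of a point grows with the width of the site. The interval beside CDKN3 has 10 control-only and 0 cadmium-only sites, and that beside TCERG1L has 5 sites, all cadmium only.

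Chromosome 20 stood apart in its single-copy desert sites. Of 24, 15 were cadmium only (62.5%) and 2 control only, while its sites within 100 kb of a start were cadmium only in 12.5% of cases and control only in 27.8%. On chromosome X, 16 of 44 single-copy desert sites were cadmium only (36.4%), against 14.2% nearer to genes. Chromosome 4 was at the other end, with 8 of 163 cadmium only (4.91%) and 81 control only (49.7%), and its sites within 100 kb of a start were likewise low in cadmium-only sites (6.87%) and high in control-only sites (36.0%). Control-only shares were also high on chromosomes 7 (47 of 92), 12 (28 of 54) and 14 (25 of 45), where 31.4%, 29.6% and 31.5% of the sites nearer to genes were control only.

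**Figure D4:**
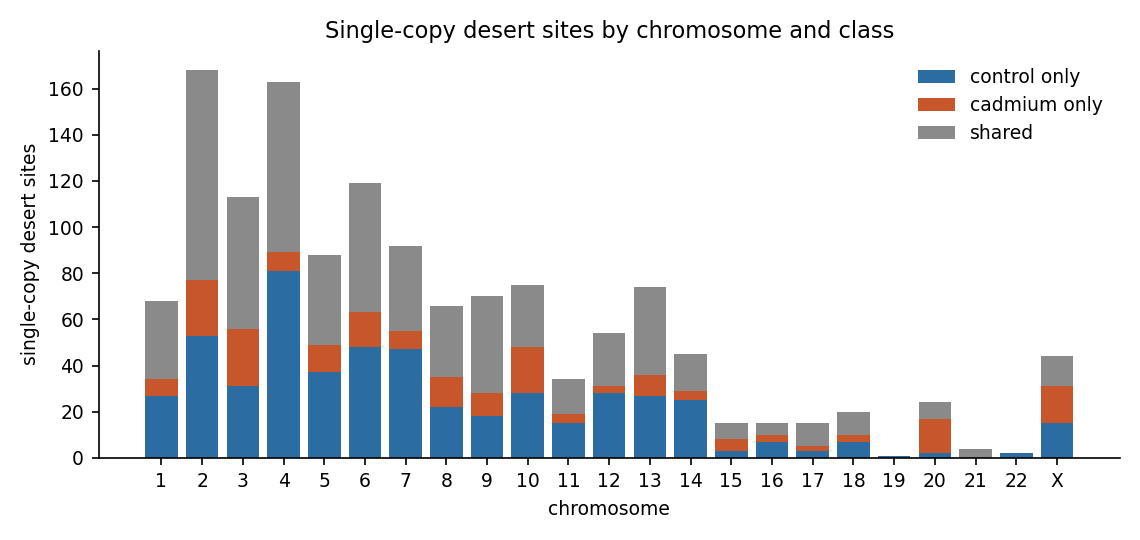
Number of single-copy desert sites on each chromosome, stacked by class. Chromosome 20 has 15 cadmium-only sites of 24, and chromosome 4 has 8 of 163.

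The name gene desert did not mean that no gene was there. A centre over 100 kb from each start lay inside an annotated gene at 539 of the 2032 sites (26.5%, 24.7 to 28.5%) and at 533 of the 1369 single-copy sites (38.93%), and inside a protein-coding gene at 352 of the latter (25.7%). Only 8 lay in an exon. The intervals of the classes overlapped, with 37.8% (33.7 to 42.0%) of control-only, 37.9% (31.5 to 44.7%) of cadmium-only and 40.3% (36.5 to 44.1%) of shared single-copy sites inside a gene. In all, 262 genes held a desert site, 156 of them protein-coding.

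AFF3, a gene of the family of transcription elongation factors, held the most, with 12 sites in chr2:99693771-99906774, 10 shared and 2 control only. ADAMTS9-AS2 held 11. GALNTL6 held 8, 4 control only and 4 shared. GNAQ, which encodes the alpha subunit of a G protein, also held 8, of which 3 were cadmium only, 5 shared and 0 control only. ATXN1, the gene of spinocerebellar ataxia, held 7, of which 4 were control only and 3 shared. ATXN1 was tied with ENSG00000233358 (4 control only, 3 shared), with the cell adhesion gene SDK1 (3 control only, 4 shared) and with SEMA3A, a repulsive guidance ligand (5 control only, 2 shared). Among these, cadmium-only sites were found in GNAQ alone.

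Among the developmental genes known for regulatory deserts that are reported here, only BMP2 had an interval over 100 kb from every transcript start at its side, and it held 0 sites. When the flanks were taken from protein-coding starts, DACH1 had 8 desert sites (3 control only, 1 cadmium only, 4 shared), SOX9, the transcription factor of cartilage and testis, had 5, all shared, IRX2 had 3 and MEIS2 had 2. SOX11, BMP2 and ZEB2 had 1 each, and SOX2, SHH, TBX3, IRX4 and NR2F1 had 0. Of the SOX9 sites, 4 lay in chr17:71398219-71496337, whose near edge was 625 kb from the SOX9 start.

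The median width of desert sites was 799 bp, against 1399 bp over all sites and 999 bp over sites 10 to 100 kb from a start. By class the medians were 799 bp for control-only, 599 bp for cadmium-only and 999 bp for shared sites, and among sites 10 to 100 kb from a start they were 799, 599 and 1399 bp. Sites of at least 2000 bp were 10.8% of control-only and 1.30% of cadmium-only desert sites, and 18.2% of the shared ones. At shared desert sites the control peaks covered more than the cadmium peaks in 486 of 960 cases (50.6%), the same in 321 and less in 153 (15.9%), against 58.0%, 18.3% and 23.7% over all shared sites.

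At equal width the control-only share was also larger in deserts. Among sites of over 600 and up to 1000 bp, 40.5% (35.6 to 45.5%) were control only in deserts and 29.8% (28.9 to 30.6%) within 100 kb of a start. Among sites over 2000 bp the shares were 33.8% (28.4 to 39.7%) and 13.2% (12.8 to 13.7%). Among single-copy desert sites they were 35.8% (30.4 to 41.5%) and 30.5% (23.5 to 38.5%) in the same width ranges. Cadmium-only sites took a smaller share in deserts at narrow widths, unlike over all widths. Up to 200 bp the shares were 13.1% (8.55 to 19.6%) in deserts and 48.5% nearer to genes. Over 200 and up to 600 bp they were 17.5% (14.99 to 20.4%) and 26.1%. Single-copy desert sites had 36.4% (23.8 to 51.1%), an interval that includes 48.5%, and 21.2% (18.1 to 24.7%). In wider sites the desert intervals included the share nearer to genes. Over 2000 bp the cadmium-only shares were 1.12% (0.380 to 3.23%) in deserts and 2.21% nearer to genes.

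The widest shared sites were in or next to satellite DNA, while the widest of the other classes included single-copy sites. The widest was the shared site chr12:34339601-34406799 beside the chromosome 12 centromere, 67199 bp wide, of which the control list covered 64397 bp and the cadmium list 60797 bp. It counts as single-copy by its central 500 bp, and the rest of it was not grouped. Next were the shared GGAAT repeats chr10:41855401-41916399 and chr21:7934401-7959599. The widest control-only sites were the alpha satellite chr20:28804001-28817999 at 13999 bp, a site of 10799 bp inside PTPRN2, which encodes a protein of secretory granules (chr7:158255001-158265799), and the alpha satellite chr19:27345801-27353199 at 7399 bp. After the site beside TCERG1L, the widest cadmium-only ones were a GGAAT repeat (chr20:28897401-28899599) and a single-copy site near NEK6, a mitotic kinase gene (chr9:124132601-124134799), each of 2199 bp.

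The sites farthest from any start all lay in the chromosome 1 centromere. The farthest shared site (chr1:125175401-125184599) was 3599 kb away, the farthest control-only site (chr1:124905401-124906199) 3325 kb and the farthest cadmium-only site (chr1:124783201-124784199) 3203 kb. The next 2 of each class were at 3594 and 3586 kb, at 3224 and 3170 kb, and at 2748 and 2504 kb. Among single-copy sites the farthest of each class shared a desert on chromosome 18, a shared site at chr18:40868201-40868599 (473 kb), a control-only site at chr18:40877001-40877399 (464 kb) and a cadmium-only site at chr18:40634801-40635399 (389 kb). The shared one is printed above for its AP-1 string, and its central 500 bp also held TGCACACG, a string selected for MTF-1 in vitro whose standing as a binding site is in doubt.

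AP-1 strings marked the single-copy desert sites. TGACTCA on either strand was present in the central 500 bp of 526 of 1369 sites (38.4%, 35.9 to 41.0%), while 5.58% of the 543249 tiles of 500 bp that make up the known desert sequence held it. In single-copy sites 10 to 100 kb from a start the share was 31.7%. The tiles, here and below, include the satellites, and those of single-copy DNA were not counted apart. The strings gathered at the centre: the central 200 bp held 387 of them, and the 400 bp of flanks 300 to 500 bp away held 191, a density 4.05 times as high at the centre. In the alpha-satellite-like sites 2 of 593 held it.

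Control-only desert sites held the AP-1 string less often than the other classes. It was present in 174 of 841 control-only (20.7%), 86 of 231 cadmium-only (37.2%) and 279 of 960 shared sites (29.1%). Each of the 10 strings was compared between each of the 3 pairs of classes with Fisher's exact test (two-sided), and p was adjusted over these 30 tests by the Benjamini-Hochberg method. Control-only sites differed from cadmium-only sites (Fisher's exact test, odds ratio 0.440, 95% interval 0.321 to 0.602, adjusted p = 1.86e-05) and from shared sites (0.637, 0.512 to 0.791, adjusted p = 0.00066). Cadmium-only and shared sites were not separated at the threshold of 0.05 by the exact test (odds ratio 1.45, 1.07 to 1.956, adjusted p = 0.0858). The tests compare sites of the lists, and neighbouring sites are not independent.

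The contrast with cadmium-only sites was smaller outside the desert satellites, which held few AP-1 strings and few cadmium-only sites. Among single-copy sites the shares were 31.9% of control-only, 40.8% of cadmium-only and 43.1% of shared sites. The odds ratio of control-only to cadmium-only sites was then 0.680 (0.487 to 0.948) and that of control-only to shared sites 0.618 (0.486 to 0.787), given without a test because the group was made after seeing the data. With 1 site per interval and class the control-only to cadmium-only difference no longer passed the exact test (0.713, adjusted p = 0.323), while the control-only to shared one did (0.526, adjusted p = 0.000924).

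Forkhead strings, bound by the FOX family of transcription factors, went the other way. The string GTAAACA, or a variant of it (ATAAACA, otherwise GTAAATA, otherwise ATAAATA), was present in 37.2% of control-only, 34.6% of cadmium-only and 30.6% of shared desert sites. Control-only sites differed from shared sites (Fisher's exact test, odds ratio 1.34, 1.10 to 1.63, adjusted p = 0.0322). The call was lost with 1 site per interval and class (exact test, 1.53, adjusted p = 0.0702), in sites of 400 to 1000 bp (1.34, adjusted p = 0.501), at 35 to 45% GC (1.16, adjusted p = 0.640) and outside genes (1.32, adjusted p = 0.148). Over whole sites the odds ratio was 0.993, but there the shared sites gave more sequence to search (median width 999 bp against 799 bp). The difference from cadmium-only sites did not pass the exact test (1.12, 0.825 to 1.52, adjusted p = 0.733). Among single-copy sites the shares were 50.1%, 36.4% and 38.5%. Over all desert tiles, satellites included, the share was 43.2%. In the central 200 bp the density was 1.14 times that of the flanks in control-only sites, 0.688 times in cadmium-only sites and 0.665 times in shared sites.

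Base composition moved with these strings. Median GC content was 39.6% for control-only, 43.8% for cadmium-only and 41.2% for shared single-copy sites, and 38% for desert tiles. Among desert sites of 35 to 45% GC the AP-1 difference between control-only and cadmium-only sites was as large (Fisher's exact test, odds ratio 0.386, adjusted p = 0.000461), but this range also holds the satellites, whose median GC content was 39.2%. In single-copy sites of 35 to 40% GC the string was in 36.6% of control-only sites (68 of 186) and 34.9% of cadmium-only sites (15 of 43). At 40 to 45% GC it was in 32.4% (45 of 139) and 50% (28 of 56). Above that range it was in 18.75% (21 of 112) and 37.0% (34 of 92), and below 35% GC in 37.8% (34 of 90) and 46.7% (7 of 15). At 35 to 45% GC the forkhead odds ratio of control-only to cadmium-only sites turned to 0.743 (exact test, adjusted p = 0.573). That range again includes the satellites, of which 14.7% held the forkhead string. In single-copy sites it was in 58.1% of control-only and 39.5% of cadmium-only sites at 35 to 40% GC. At 40 to 45% GC it was in 41.7% and 46.4%, above that range in 31.25% and 22.8%, and below 35% GC in 70% and 73.3% (11 of 15).

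**Figure D5:**
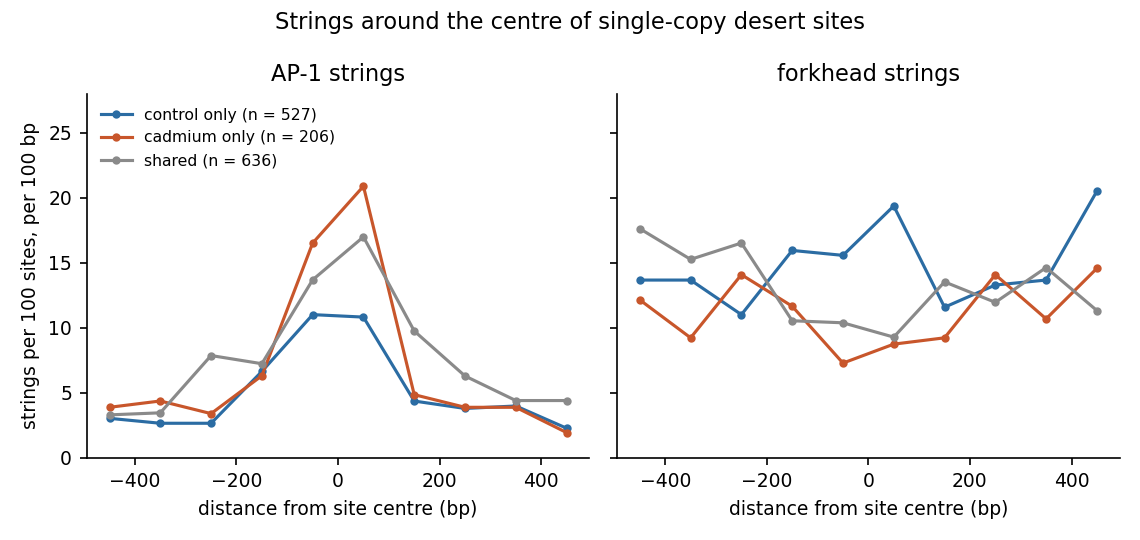
Number of AP-1 (left) and forkhead (right) strings per 100 sites in each 100 bp, against distance from the centre of single-copy desert sites, by class. The AP-1 density within 100 bp of the centre is 3.65 times that of the flanks in control-only, 5.31 times in cadmium-only and 3.94 times in shared sites, while the forkhead ratio is 1.14, 0.688 and 0.665.

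The sequence that MTF-1 itself binds was not more frequent in desert sites than in desert DNA. The metal response element core, written TGCGCNC and with the variant TGCACNC, was present in 469 of 2032 desert sites (23.1%) and in 23.05% of desert tiles. Both include satellites, though not in equal parts. Among the single-copy desert sites it was in 284 of 1369 (20.7%, 18.7 to 22.97%). It was in 23.4% of control-only, 22.9% of cadmium-only and 22.8% of shared desert sites, with an adjusted p of 1 for each pair, and the odds ratio of control-only to cadmium-only sites was 1.03 (0.727 to 1.45). TGCACACG was found in 10 single-copy desert sites (0.730%), and in 0.723% of tiles. RUNX strings (TGTGGTT) were in 18.5% of single-copy desert sites and 8.39% of tiles. The antioxidant response element core TGACNNNGC, which can overlap an AP-1 string, was in 19.5% of sites and 13.2% of tiles. It was more frequent in cadmium-only than in control-only or shared desert sites (22.1%, 15.2% and 14.8%), but neither pair passed the exact test (adjusted p = 0.0858 and 0.0712). No pair of classes passed for the RUNX string, for TGCACACG or for the metal response element core. The same held for ACATTCC, bound by TEAD proteins, for AGATAAG, bound by GATA-family proteins, for the cyclic AMP response element TGACGTCA and for the E-box CACGTG.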

How the data were processed

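MTF-1 CUT&RUN reads of MDA-MB-231 cells were trimmed, aligned to hg38 with Bowtie2 and merged by condition with samtools 1.8 by the authors, who called peaks with Epic2 at default settings (SICER 0.0.50 in the submitters' processing notes). No background library, blacklist or filter on reads with several alignments is given in the sources used here. The deposited lists, 69299 control and 60130 cadmium peaks, hold positions in base pairs with no height, count or score, so depth is unknown. Every peak width is a multiple of 200 bp less 1. Transcript starts, genes and sequence came from GENCODE 44 and its GRCh38 (hg38) genome, which was given without soft-masking, so that repeats were found from the sequence itself.

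Overlapping peaks were merged in Python 3.11.15 with numpy 2.4.6, pandas 2.3.3 and pysam 0.24.0. Distances ran from the centre of the merged site. Shares carry 95% Wilson intervals. Strings were searched on both strands of the central 500 bp, and classes were compared with Fisher's exact test in scipy 1.17.1, with Benjamini-Hochberg adjustment. The steps were tested on simulated data. Deserts, genes and sites were named by fixed rules: the 5 deserts with most sites and the 3 longest, the 5 genes holding most sites (with ties), the 3 widest and 3 farthest sites of each class, and a list of developmental genes known for regulatory deserts. Some items that these rules pick are not reported here. Other intervals, chromosomes and sequence groups were chosen after their values were seen. Printed sequences other than those of the satellites were taken from single-copy sites because soft-masking, named in the rule for them, was not available. Site classes, lists and strings were chosen with earlier results of these data known. Alternatives covered the distance limit, the starts, peak width, overlap, gaps, genes, GC content and 1 site per interval.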

Additional observations from a re-analysis of the deposited data

How the results depend on the processing

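No paired analysis was possible because the peak lists analysed here were each called on merged replicates. The alternatives that drop soft-masked sites were not run, since the genome carried no soft-masking. Of 84 alternative values, 41 kept the direction and the side of the threshold or moved by less than the error, and for the others the cause was not tested. The control-only share of desert sites, 41.4%, ranged from 36.7% to 63.5% over the alternatives. It was 37.9% over 50 kb, 47.9% over 200 kb, 36.7% from protein-coding starts, 50.2% for peaks of at least 400 bp, 63.5% for peaks of at least 1000 bp, 55.3% when sharing needed 50% of a peak covered, 36.9% with 1 site per interval and 38.5% for single-copy sites. The cadmium-only share, 11.4%, was 13.7% over 50 kb, 4.83% over 200 kb, 14.0% from protein-coding starts, 14.4% with 50% coverage, 13.4% away from assembly gaps, 18.2% with 1 site per interval, 15.05% for single-copy sites and 13.5% without the chromosome 1 centromere. The density ratio of 0.262 was 0.317 over 50 kb, 0.161 for peaks of at least 1000 bp and 0.186 for single-copy sites. The median width of shared sites, 999 bp, was 799 bp in control peaks and 599 bp in cadmium peaks before merging. The share inside genes, 26.5%, was 17.5% for protein-coding genes and 38.93% for single-copy sites.

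The AP-1 odds ratio of control-only to cadmium-only sites was 0.493 in sites of 400 to 1000 bp (exact test, adjusted p = 0.0883), 0.713 with 1 site per interval and class and 0.680 in single-copy sites. That of control-only to shared sites was 0.722 in the central 200 bp and 0.717 outside genes, neither past the threshold. That of cadmium-only to shared sites was 1.74 in the central 200 bp and then passed (exact test, adjusted p = 0.0153), but turned to 0.761 in sites of 400 to 1000 bp, 0.737 with 1 site per interval and class and 0.910 in single-copy sites. The forkhead odds ratio of control-only to shared sites lost its call at 1.34 in sites of 400 to 1000 bp, 1.16 at 35 to 45% GC, 1.53 with 1 site per interval and class and 1.32 outside genes, and turned to 0.993 over whole sites. That of control-only to cadmium-only sites was 1.88 over whole sites, where it passed, 0.743 at 35 to 45% GC with the satellites included, and 1.75 in single-copy sites. That of cadmium-only to shared sites was 0.528 over whole sites, where it turned and passed (exact test, adjusted p = 0.00020), 0.916 with 1 site per interval and class and 0.914 in single-copy sites. Over whole sites the length searched differed by class, with median widths of 799 bp for control-only, 599 bp for cadmium-only and 999 bp for shared sites. The part of width in these values was not tested.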

Other observations

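Strings in the desert satellites formed a set of their own. The E-box CACGTG was in 126 of 593 alpha-satellite-like sites (21.2%) and in 3.93% of desert tiles. The metal response element core was in 159 (26.8%), and RUNX strings in 5. Copies of 1 unit repeat the same letters, so these sites are not independent.

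Spacing differed between the classes of single-copy desert sites. Another site, of any class, lay within 10 kb of the edge of 41.7% of control-only (37.6 to 46.0%), 26.2% of cadmium-only (20.7 to 32.6%) and 42.8% of shared sites (39.0 to 46.6%).

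The order of the classes in single-copy DNA 10 to 100 kb from a start was similar for forkhead strings, with 44.9% of control-only, 28.2% of cadmium-only and 34.3% of shared sites. For the AP-1 string the shares there were 27.5%, 36.5% and 33.0%, so that cadmium-only sites held it most often. In deserts the intervals of shared (43.1%, 39.3 to 47.0%) and cadmium-only single-copy sites (40.8%, 34.3 to 47.6%) overlapped, so their order was not resolved.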
